A study of Arabidopsis thaliana with 18 samples.

Results

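Nuclear genes of the photosystems and their light-harvesting antennae were followed in roots of Arabidopsis thaliana (thale cress) grown with bisphenols. The 40 loci were taken from a list of named genes: 18 light-harvesting (LHC) genes, LHCA1 to LHCA4 and the LHCB1 to LHCB6 members, 10 genes of photosystem II (PSII) subunits, PSBO1 to PSBY, and 12 genes of photosystem I (PSI) subunits, PSAD1 to PSAO. All 40 were present among the 33602 loci of each library, and all 40 passed the filter of a mean of at least 1 FPKM (fragments per kilobase of gene, scaled to the library's mapped fragments) that 19484 loci passed.

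Wild-type roots were sequenced as messenger RNA after 14 days on agar, in 6 groups of 3 libraries: BPA, BPB, BPE, BPF and BPS, each named for the bisphenol in the medium, and a control given only the solvent DMSO. All groups shared the medium and a cycle of 16 h of light and 8 h of dark, and the labels do not say whether the roots were shielded from the light. Each bisphenol has a pair of phenol rings joined by a bridge: in BPA the bridging carbon bears methyl groups, in BPE a lone methyl, in BPB an ethyl beside a methyl, in BPF neither, and in BPS the bridge is a sulfonyl. Doses of 1, 3 and 10 mg/L appear in the protocol without being assigned to libraries, and comparisons between compounds may therefore mix doses. By their labels the libraries of a group are separate samples, and nothing says that they came from separate plates or plants, so a p-value here reflects how these libraries vary, which may be technical.

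Light-harvesting proteins bind chlorophyll and pass absorbed energy to the reaction centres. The LHCA proteins serve photosystem I, LHCB1 to LHCB3 form the major trimeric antenna, and LHCB4 to LHCB6 are the minor antenna proteins of photosystem II. The core of each photosystem is largely encoded in the chloroplast, while the genes followed here are nuclear and their products are imported into the plastid. They are known for high messenger levels in green tissue, whereas root plastids of soil-grown plants are mostly colourless.

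Recovered library totals were such that 1 FPKM on 1 kb stood for 15.9 to 22.1 fragments, depending on the library. Over all genes tested, 7 of 18 libraries lay nearer to a library of another group than to any of their own. For BPA replicate 3, BPB replicate 3 and BPS replicate 3 the difference was wide: BPB replicate 3 and BPS replicate 3 lay at a root mean square difference of 0.365 log2 units from each other, against 0.666 and 0.544 to the nearest library of their own group. BPA replicate 3 lay at 0.368 from BPF replicate 3 and at 0.522 from the nearest BPA library. Counts are given with and without these 3 libraries below. The labels name no batch or date, so nothing could be recomputed within batches.

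The promoters of 5 antenna genes are shown because these genes carry the main findings: LHCB1.3, LHCB1.5 and LHCA4 had the highest antenna levels, and LHCB2.1 and LHCB2.3 are copies whose levels moved apart. Each line holds the 250 bases before the annotated gene start, 5′ to 3′ on the gene's strand, read from the RefSeq assembly TAIR10.1. Capitals mark any of 4 motifs on either strand. The G-box is CACGTG, which reads the same on both strands. The I-box is GATAAG. The motif known for binding of GLK factors is CCAATC, which holds the letters of the CCAAT box within it. The TATA box is TATAAA. The windows are LHCA4 at chr3:17495034-17495283 (minus strand), LHCB1.3 at chr1:10477635-10477884 (plus strand), LHCB1.5 at chr2:14523569-14523818 (minus strand), LHCB2.1 at chr2:1824481-1824730 (minus strand) and LHCB2.3 at chr3:10255656-10255905 (plus strand).
LHCA4: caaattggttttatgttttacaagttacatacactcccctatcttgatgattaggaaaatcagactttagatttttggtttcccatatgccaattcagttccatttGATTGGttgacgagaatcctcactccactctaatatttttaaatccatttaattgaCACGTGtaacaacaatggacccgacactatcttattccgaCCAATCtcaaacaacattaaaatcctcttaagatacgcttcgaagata
LHCB1.3: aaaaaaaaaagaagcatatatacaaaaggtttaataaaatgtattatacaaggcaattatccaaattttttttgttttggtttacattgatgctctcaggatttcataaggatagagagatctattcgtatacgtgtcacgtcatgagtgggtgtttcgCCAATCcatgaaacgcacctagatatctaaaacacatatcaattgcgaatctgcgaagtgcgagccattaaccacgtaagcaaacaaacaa
LHCB1.5: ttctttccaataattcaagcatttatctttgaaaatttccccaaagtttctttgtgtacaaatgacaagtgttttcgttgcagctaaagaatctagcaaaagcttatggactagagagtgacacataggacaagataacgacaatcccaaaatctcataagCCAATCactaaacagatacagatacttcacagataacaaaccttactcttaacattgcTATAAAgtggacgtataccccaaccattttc
LHCB2.1: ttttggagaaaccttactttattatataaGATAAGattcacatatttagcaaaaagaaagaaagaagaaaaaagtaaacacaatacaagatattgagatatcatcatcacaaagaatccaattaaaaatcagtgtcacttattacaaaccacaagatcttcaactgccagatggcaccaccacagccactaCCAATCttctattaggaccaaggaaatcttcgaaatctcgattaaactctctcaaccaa
LHCB2.3: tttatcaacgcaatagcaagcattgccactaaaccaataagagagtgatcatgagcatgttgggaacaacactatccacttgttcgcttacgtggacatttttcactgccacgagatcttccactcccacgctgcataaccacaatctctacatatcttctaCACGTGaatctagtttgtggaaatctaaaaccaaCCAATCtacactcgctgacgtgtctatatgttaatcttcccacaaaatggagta

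All 5 windows held CCAATC, and LHCA4 held it at 2 places. Over the 40 genes, CCAATC was present in 11 windows (27.5%): 10 of 18 LHC genes, 1 of 10 PSII genes (PSBQ2) and 0 of 12 PSI genes. Of 27443 promoters of protein-coding genes 10.2% held it. The G-box was in 8 of the 40 windows (20%) against 6.49% of all promoters, the I-box in 9 (22.5%) against 12.3%, and TATAAA in 17 (42.5%) against 47.3%. A match is a run of letters in the window and was not tested for binding.

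Summed over the 40 genes, the level was higher with every compound than in control in the mean. The summed level was 729.7, 1297 and 899 FPKM in BPA roots, 1673, 1766 and 2117 in BPB, 852, 986 and 747 in BPE, 587, 396 and 950.4 in BPF and 1126, 609 and 1847 in BPS, against 244, 438 and 190.4 in control, in the order of replicates 1, 2 and 3. The 12 libraries of BPA, BPB, BPE and BPS all lay above the 3 control libraries, and BPF replicate 2 lay within their range. In bulk roots, more cells of a type and more RNA per cell cannot be told apart.

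By class, the groups fell in different orders. The light-harvesting genes summed to 273, 570.2 and 462 FPKM in BPA, 756, 846 and 1283 in BPB, 392, 478 and 335 in BPE, 289.9, 188 and 499.8 in BPF and 654, 312 and 1235 in BPS, against 115, 210.4 and 91.0 in control. The highest antenna sums were those of BPB replicate 3 and BPS replicate 3. The PSII genes summed to 329, 512 and 319 FPKM in BPA, 693, 686 and 597 in BPB, 308, 323 and 270.2 in BPE, 203, 152 and 335 in BPF and 332, 222 and 419 in BPS, against 86.7, 151 and 71.0 in control. BPB stood apart here, since its lowest library lay above every library of the other groups. The PSI genes summed to 128, 215 and 119 FPKM in BPA, 224, 235 and 237 in BPB, 152, 185 and 142 in BPE, 94.2, 55.5 and 116 in BPF and 139, 75.2 and 193 in BPS, against 42.0, 77.0 and 28.4 in control. Here too the lowest BPB library, at 224 FPKM, lay above every library of the other groups, by a small margin over BPA replicate 2 at 215. The spread of the 3 BPB libraries was narrow for this class (232 ± 7.16 FPKM, SD, n = 3), while BPS replicate 2 lay below control replicate 2.

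The mean sum of the antenna genes was 3.13, 6.93, 2.89, 2.35 and 5.29 times the control mean in BPA, BPB, BPE, BPF and BPS. For PSII the same folds were 3.75, 6.40, 2.92, 2.23 and 3.15, and for PSI 3.13, 4.72, 3.25, 1.80 and 2.76. The antenna fold of 5.29 in BPS was 3.48 without BPS replicate 3. BPS, like BPB and BPF, had its largest fold in the antenna and its smallest in PSI, whereas the folds of BPE lay close together. The antenna took 51.2% to 66.8% of the 40-gene sum in BPS libraries, 45.2% to 60.6% in BPB, 44.8% to 48.5% in BPE, 47.6% to 52.6% in BPF and 37.4% to 51.4% in BPA, against 47.2% to 48.0% in control. All 3 BPS libraries lay above the control range. This share includes LHCB1.3, which alone made up 18.7% to 28.4% of the 40-gene sum in BPS and 7.91% to 14.1% in control. By gene the classes lay closer: the median log2 change in BPS was 1.61 for the antenna, 1.44 for PSII and 1.42 for PSI.

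**Figure D1:**
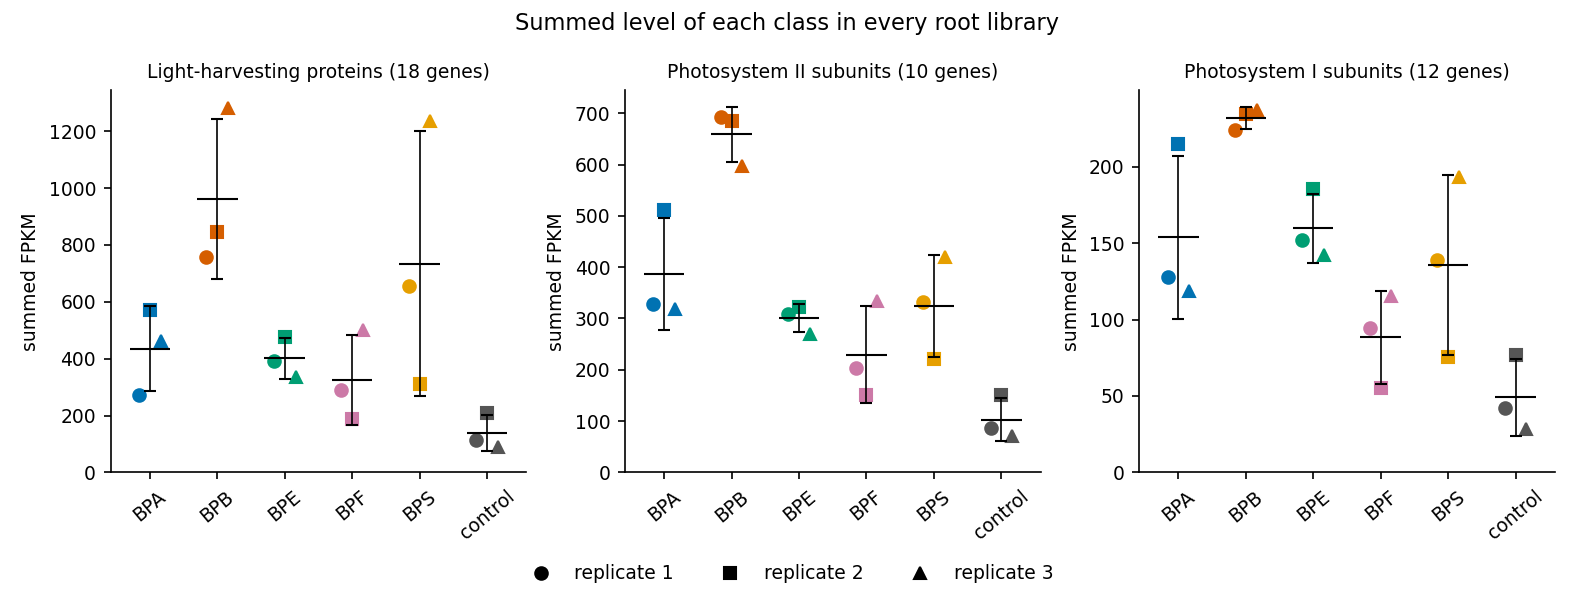
Summed FPKM (linear axis from 0) of the 18 light-harvesting, 10 photosystem II and 12 photosystem I genes in each of the 18 libraries, with marker shapes for replicates, a line for the mean and bars for the SD (n = 3). BPB libraries are highest for photosystem II, at 597 to 693 FPKM, and for photosystem I, at 224 to 237 FPKM. BPS libraries spread widely for the antenna, at 312 to 1235 FPKM.

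In every group but BPB, 32 or more of the 40 genes had the same library highest. Control replicate 2 was the highest of the 3 control libraries for all 40 genes, and control replicate 3 the lowest for 35. BPS replicate 3 was the highest BPS library for 39 genes and BPS replicate 2 the lowest for 38, and BPF replicate 2 was the lowest BPF library for 37 and BPF replicate 3 the highest for 32. BPA replicate 2 was the highest BPA library for 37, and BPE replicate 2 the highest BPE library for 32. In BPB the order varied more between genes: replicates 1, 2 and 3 were the highest for 7, 9 and 24 genes and the lowest for 18, 11 and 11. BPB replicate 3 had the highest antenna sum of its group and the lowest PSII sum. Between the highest and the lowest library the 40-gene sum differed 3.04-fold in BPS, 2.40-fold in BPF, 2.30-fold in control, 1.78-fold in BPA, 1.32-fold in BPE and 1.27-fold in BPB. The groups with wide spread were thus BPS, BPF and control. Of the 40 genes, 18 had their highest level of all in BPB replicate 3 and 31 their lowest in control replicate 3.

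Gene by gene, all changes called against control were rises. The test was limma on log2(FPKM + 1) with all 18 libraries, adjusted by Benjamini-Hochberg over all 19484 genes within each comparison and called at an adjusted p below 0.05. In BPB roots 38 of 40 genes rose, beside 36.6% of all genes called in either direction and 25.5% called higher. In BPS 31 rose (background 21.0% either way, 12.3% higher), in BPE 30 (14.3% and 9.08%), in BPA 24 (10.4% and 6.57%) and in BPF 1 (1.39% and 0.708%), PSBR. The median log2 change of the 40 was 1.44 in BPA, 2.20 in BPB, 1.40 in BPE, 0.74 in BPF and 1.44 in BPS, beside 0.04, 0.16, 0.04, 0.01 and 0.09 over all genes tested. The 5 comparisons share the control libraries.

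The groups did not overlap control, with the compound higher, for 27 of 40 genes in BPA, 38 in BPB, 38 in BPE, 11 in BPF and 28 in BPS. Over all genes tested these shares were 21.1%, 34.7%, 25.5%, 15.0% and 23.7%. In BPF, 19 of the 40 genes were higher at an unadjusted p under 0.05 (9.57% of all genes tested) and 38 had a positive change. By class, 7 of 18 antenna genes, 8 of 10 PSII genes and 9 of 12 PSI genes rose in BPA. In BPB the counts were 16, 10 and 12, in BPE 10, 8 and 12, in BPF 0, 1 and 0, and in BPS 14, 9 and 8. BPA thus had fewer antenna genes called than photosystem genes, and BPE had every PSI gene called. In all of BPA, BPB, BPE and BPS, 21 genes rose: 6 of 18 antenna genes, 7 of 10 of PSII and 8 of 12 of PSI. LHCB2.3 was called in none. The genes not called in BPB were LHCB2.3 and LHCB4.3. Those not called in BPS were LHCA1, LHCB2.3, LHCB4.2, LHCB6, PSBY, PSAD1, PSAD2, PSAE1 and PSAH2.

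Several counts rested on single libraries. In BPA the count was 6 without BPA replicate 2, 10 without control replicate 1 and 10 without control replicate 3. The 6 genes called in all 18 fits that leave out a library were PSBO1, PSBO2, PSBQ2, PSBR, PSBS and PSAE2. In BPE the count was 8 without BPE replicate 1, 7 without BPE replicate 2, 11 without control replicate 1 and 4 without control replicate 3, and the 4 genes called in all such fits were PSBR, PSAE2, PSAK and PSAL. In BPB 35 were called in all of them, and PSAD1, PSAD2 and PSBY were not; in BPS 21 were. The PSBR call in BPF was lost without BPF replicate 3 (adjusted p = 0.221, limma), control replicate 1 (0.192), control replicate 3 (0.111) or BPE replicate 2 (0.0533), with no filter on low values (0.0547) and with only the 6 libraries compared (0.0794). With BPA replicate 3, BPB replicate 3 and BPS replicate 3 left out together, an alternative chosen after seeing the data, the counts were 29 in BPA, 38 in BPB, 34 in BPE, 5 in BPF and 23 in BPS.

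**Figure D2:**
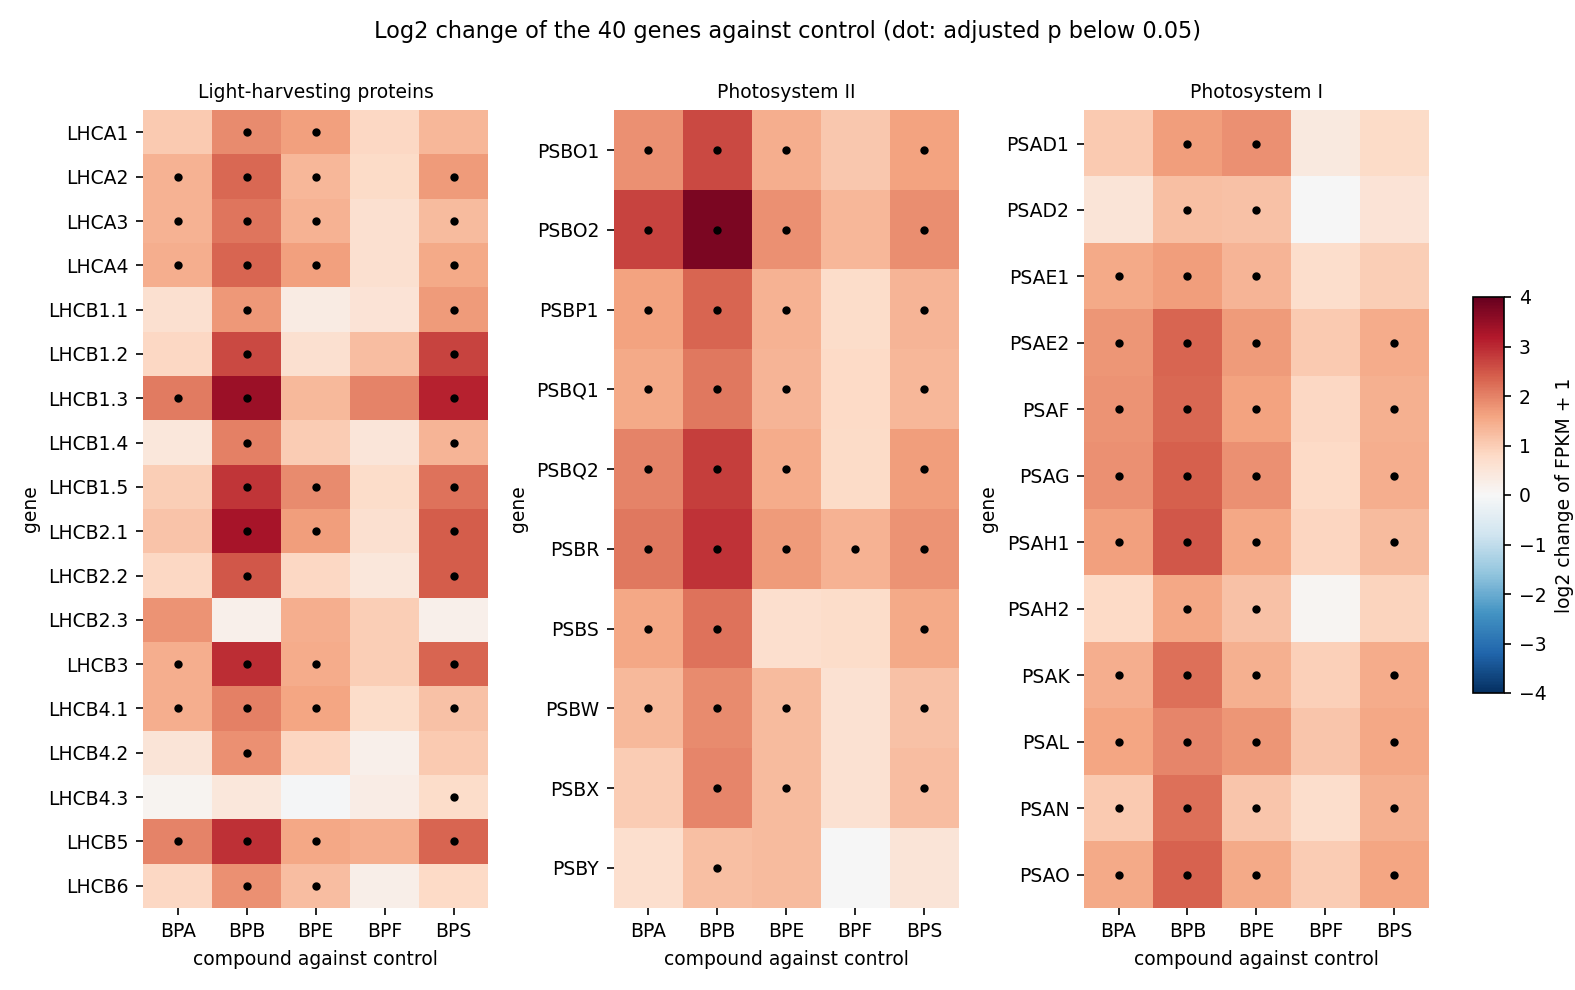
Log2 change of FPKM + 1 against control for each of the 40 genes (rows, by class) in BPA, BPB, BPE, BPF and BPS (columns), with a dot where limma's adjusted p is below 0.05. The BPB column is the reddest, with values up to 3.76 for PSBO2, while LHCB2.3 and LHCB4.3 stay pale there at 0.19 and 0.45.

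Among the antenna genes, LHCB1.3 (AT1G29930), of the major trimeric antenna, had the highest level and the largest mean change on the log2(FPKM + 1) scale. It stood at 56.0, 173 and 225 FPKM in BPA, 248, 278 and 527 in BPB, 57.3, 109 and 67.9 in BPE, 106, 73.1 and 232 in BPF and 306, 114 and 525 in BPS, against 19.3, 52.9 and 26.9 in control. Every library of each compound lay above all 3 control libraries. The log2 change was 3.41 in BPB (adjusted p = 0.000676, limma), 3.08 in BPS (0.00310) and 2.07 in BPA (0.0439), all called, and 1.97 in BPF (0.115) and 1.28 in BPE (0.164), not called. The call in BPA was lost without any of 9 single libraries, with adjusted p up to 0.172 without BPA replicate 2 (limma). It was also lost with no filter on low values (0.0662), with quantile normalization (0.0562) and with the 3 libraries named above left out together (0.0604). LHCB1.3 made up 18.7% to 28.4% of the 40-gene sum in BPS libraries and 6.73% to 11.0% in BPE, against 7.91% to 14.1% in control.

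LHCB1.3 lies in a cluster with LHCB1.1 and LHCB1.2 on chromosome 1, with gaps of 1153 and 1915 bases between the genes. Their coding sequences are 95.6% to 96.4% identical, so how reads were split between them is uncertain. LHCB1.2 was 5.60, 5.22 and 11.1 FPKM in BPB and 8.18, 2.13 and 18.5 in BPS, against 0.367, 0.372 and 0.103 in control, and rose in both (log2 change 2.64 and 2.70, adjusted p = 0.00184 and 0.00350, limma). The log2(FPKM + 1) scale understates changes of such low genes. Mean FPKM of LHCB1.2 was 9.61 in BPS against 0.281 in control, a larger fold than for LHCB1.3, at 315 against 33.0. LHCB1.1 was the lowest of the 18 antenna genes, at 4.01, 1.85 and 3.19 FPKM in BPB and 2.71, 0.833 and 7.37 in BPS, against 0.182, 0.369 and 0 in control, where replicate 3 is listed at 0. The deposited values put LHCB1.3 above both copies in every library, and how far that rests on the split of shared reads was not tested.

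LHCB1.5 (AT2G34420), a further copy of the major antenna, was the second highest antenna gene. It stood at 28.4, 52.5 and 37.7 FPKM in BPA, 90.0, 135 and 244 in BPB, 80.4, 91.4 and 52.9 in BPE, 34.0, 21.2 and 44.3 in BPF and 69.7, 42.8 and 222 in BPS, against 17.9, 32.4 and 11.3 in control. BPB, BPE and BPS libraries lay above all control libraries, while BPA replicate 1 and BPF replicate 2 lay within the control range. It rose in BPB (2.87, adjusted p = 0.000838, limma), BPS (2.16, 0.0104) and BPE (1.90, 0.0304). Its neighbour LHCB1.4, 1038 bases away on chromosome 2, was much lower, at 4.74, 4.69 and 8.00 FPKM in BPB against 0.689, 1.24 and 0.208 in control. A noncoding gene on the opposite strand spans all 1045 bases of LHCB1.5, and whether counting used strand is not given in the sources used here.

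The ratio of LHCB1.5 to LHCB1.3 split the compounds. It was 1.40, 0.840 and 0.779 in BPE, above every library of the other compounds, which ran from 0.168 to 0.508, and it was 0.930, 0.611 and 0.418 in control. The pair was chosen after its values were seen, so no test is given. LHCB1.3 differed between compounds in the direct comparison of BPS with BPE, at a log2 difference of 1.80 (95% interval 0.49 to 3.10, adjusted p = 0.0301, limma). The call was lost without BPS replicate 3 (adjusted p = 0.130, limma), BPE replicate 1 (0.0927), BPS replicate 1 (0.0735) or BPE replicate 3 (0.0731).

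LHCB2.1 (AT2G05100) and LHCB2.3 (AT3G27690), copies of another protein of the trimeric antenna, moved apart. LHCB2.1 stood at 4.13, 11.6 and 7.22 FPKM in BPA, 27.8, 32.0 and 46.7 in BPB, 11.9, 12.7 and 8.05 in BPE, 4.21, 3.33 and 7.21 in BPF and 13.1, 8.90 and 51.9 in BPS, against 1.89, 5.47 and 1.57 in control. It rose in BPB (log2 change 3.29, 11.9 times the control mean, adjusted p = 0.000296, limma), in BPS (2.42, 0.00511) and in BPE (1.68, 0.0456). The call in BPE was lost without any of 8 single libraries, with no filter on low values (0.0670) and with quantile normalization (0.0552). LHCB2.3 stood at 21.8, 41.5 and 11.3 FPKM in BPA, 14.3, 7.70 and 2.16 in BPB, 16.1, 17.6 and 17.4 in BPE, 12.8, 6.82 and 18.8 in BPF and 16.7, 4.37 and 3.56 in BPS, against 7.51, 8.60 and 2.44 in control. BPA and BPE libraries all lay above control, whereas BPB replicate 3 was below every control library and BPB replicate 2, BPF replicate 2 and BPS replicates 2 and 3 lay within the control range.

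Against control LHCB2.3 was not called in any comparison, with a log2 change of 1.80 in BPA (95% interval 0.46 to 3.14, adjusted p = 0.0759, limma), 1.46 in BPE (0.126), 0.19 in BPB (0.833) and 0.21 in BPS (0.851). The BPA change was called without BPA replicate 3 (2.25, adjusted p = 0.0479) and without BPB replicate 3 (1.80, adjusted p = 0.0414). The ratio of LHCB2.3 to LHCB2.1 was 0.513, 0.240 and 0.0463 in BPB and 1.27, 0.491 and 0.0686 in BPS, against 3.97, 1.57 and 1.55 in control. All 6 of these BPB and BPS libraries lay below every control, BPA, BPE and BPF library, and BPA, BPE and BPF together ran from 1.35 to 5.28. This pair too was chosen after its values were seen. The coding sequences of LHCB2.1 and LHCB2.3 are 64.0% identical with gap positions counted: 674 positions matched, 124 differed and 255 were gaps. Of the 1584 bases of LHCB2.3, 595 overlap a gene on the opposite strand.

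**Figure D3:**
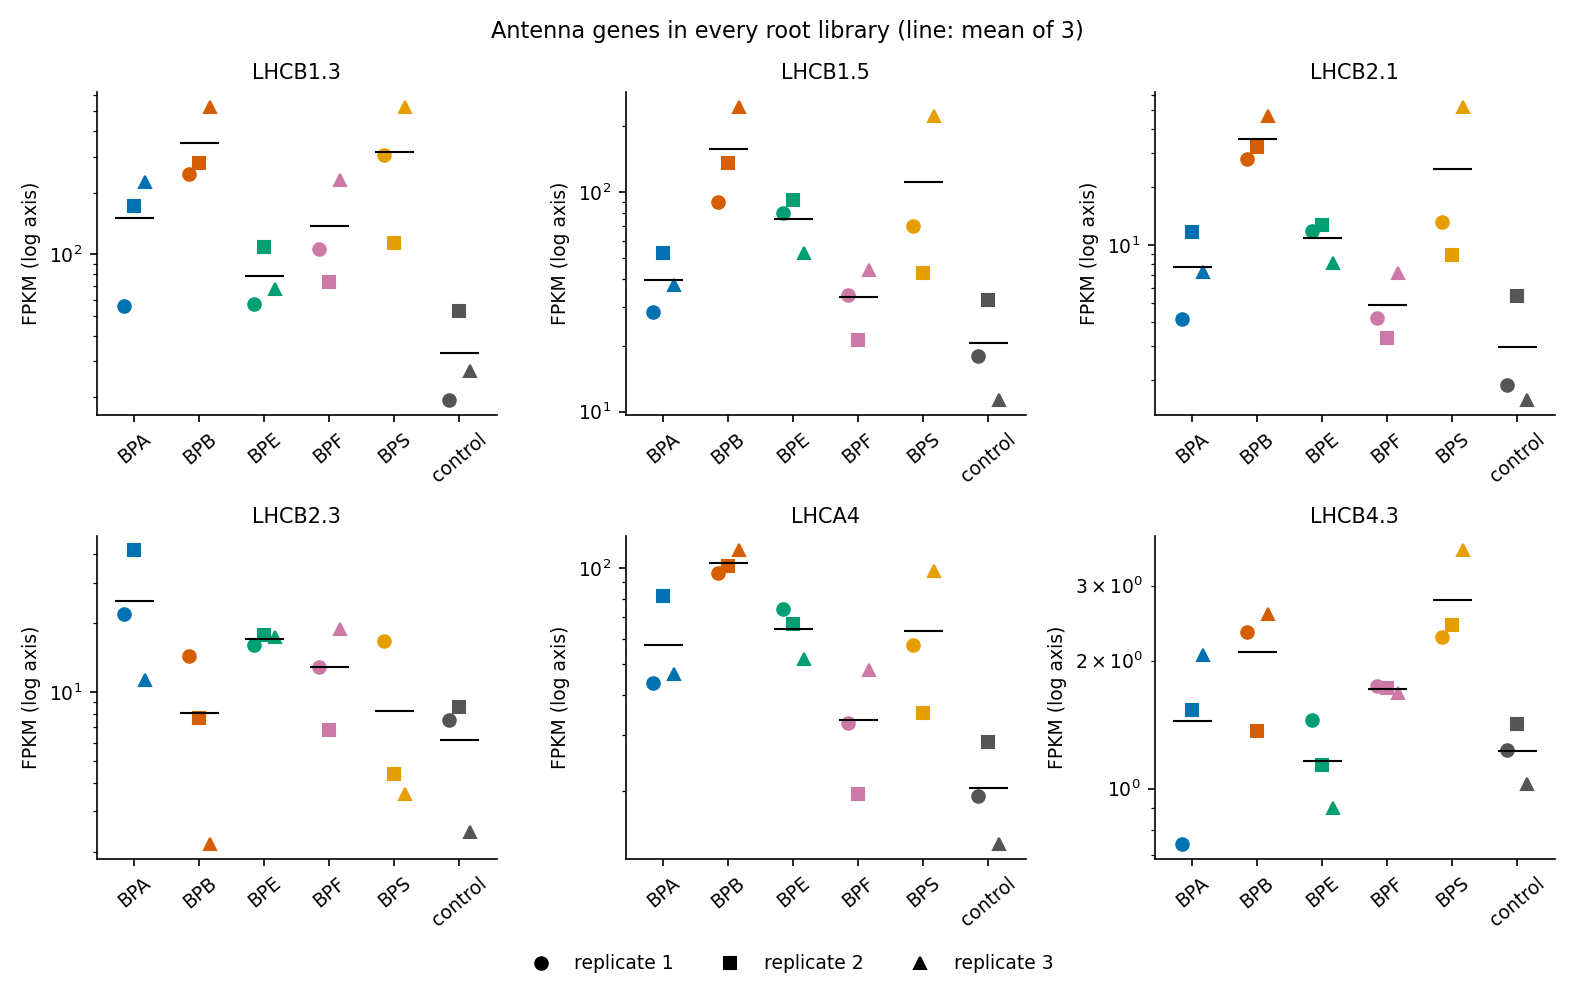
FPKM (log axis) of LHCB1.3, LHCB1.5, LHCB2.1, LHCB2.3, LHCA4 and LHCB4.3 in each of the 18 libraries, with marker shapes for replicates and a line for the mean of 3. LHCB2.1 is high in BPB replicate 3 and BPS replicate 3, at 46.7 and 51.9 FPKM, where LHCB2.3 is low, at 2.16 and 3.56.

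LHCA4 (AT3G47470), an antenna protein of photosystem I, was the third highest antenna gene. It stood at 43.6, 81.4 and 46.5 FPKM in BPA, 96.4, 101 and 113 in BPB, 74.2, 66.8 and 51.7 in BPE, 32.6, 19.6 and 47.8 in BPF and 57.5, 35.2 and 97.7 in BPS, against 19.3, 28.4 and 13.6 in control. Libraries of BPA, BPB, BPE and BPS all lay above control, and BPF replicate 2 lay within the control range. It rose in BPB (log2 change 2.34, adjusted p = 0.000285, limma), BPE (1.65, 0.0129), BPS (1.53, 0.00973) and BPA (1.44, 0.0257). LHCA2 and LHCA3 rose in the same 4 groups, with log2 changes from 1.26 to 2.30, and LHCA1 rose in BPB and BPE (1.88 and 1.65).

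Relative to LHCA4, LHCB1.3 was high with BPB, BPF and BPS. The ratio of LHCB1.3 to LHCA4 was 3.26, 3.74 and 4.85 in BPF and 5.32, 3.24 and 5.37 in BPS, and 0.772, 1.63 and 1.31 in BPE, against 0.998, 1.86 and 1.97 in control. BPB, BPF and BPS libraries lay above all control libraries, and BPE libraries overlapped them. In BPA the ratio ran from 1.28 to 4.85 and in BPB from 2.57 to 4.65. This ratio was also chosen after its values were seen.

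The minor antenna genes differed in the groups in which they rose. LHCB5, the gene of the protein CP26, rose in BPA, BPE and BPS as well as BPB, with log2 changes of 2.00, 1.56 and 2.32 in the first 3. LHCB6, the gene of CP24, rose in BPB (1.83) and BPE (1.22) and not in BPS (0.79, adjusted p = 0.139, limma). LHCB3, of the major trimeric antenna, rose in BPA, BPB, BPE and BPS, by 1.46 to 2.96.

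LHCB4.3 (AT2G40100), a divergent copy of the gene of CP29, had the smallest mean change of the antenna. It stood at 0.741, 1.53 and 2.06 FPKM in BPA, 2.33, 1.36 and 2.58 in BPB, 1.45, 1.14 and 0.903 in BPE, 1.74, 1.72 and 1.68 in BPF and 2.28, 2.43 and 3.63 in BPS, against 1.23, 1.42 and 1.03 in control. All BPF and BPS libraries lay above control, BPB replicate 2 lay inside the control range, and BPA and BPE libraries fell on both sides of it. It rose in BPS (log2 change 0.75, adjusted p = 0.0197, limma), a call lost without BPS replicate 3 (0.0834), control replicate 1 (0.0584) or control replicate 3 (0.0670), and was not called in BPB (0.45, 95% interval 0.01 to 0.90, adjusted p = 0.09998). LHCB4.1, the highest copy, rose in all 4 of BPA, BPB, BPE and BPS, by 1.17 to 2.02. LHCB4.2 rose in BPB alone (1.83).

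The ratio of LHCB4.3 to LHCB4.1 differed among the 6 groups (permutation test of the log2 ratio, 100000 permutations, adjusted p = 0.0243 over 7 ratios). It was 0.0326, 0.0234 and 0.0230 in BPE and 0.0376, 0.0213 and 0.0481 in BPB, against 0.0946, 0.0645 and 0.110 in control, with no overlap in either case. In BPS it was 0.0648, 0.107 and 0.0834, all within the control range. The ratio of LHCB4.2 to LHCB4.1 gave an adjusted p of 0.119 in the same permutation test.

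Among the PSII genes, PSBR (AT1G79040), a small subunit near the oxygen-evolving complex, had the highest level and was the only gene of the 40 called with all 5 compounds. It stood at 180.1, 254 and 171 FPKM in BPA, 372, 361 and 299 in BPB, 159, 151 and 137 in BPE, 109, 82.3 and 186 in BPF and 171, 120.2 and 197 in BPS, against 38.0, 69.1 and 34.9 in control. No library of a compound lay within the control range. The log2 change was 2.11 in BPA (adjusted p = 0.00269, limma), 2.90 in BPB (1.67e-05), 1.70 in BPE (0.00413), 1.38 in BPF (0.0352) and 1.80 in BPS (0.000945).

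The genes of the oxygen-evolving complex, PSBO, PSBP and PSBQ, rose in BPA, BPB, BPE and BPS. PSBO1 (AT5G66570), the main gene of the manganese-stabilising protein, was 56.5, 99.4 and 61.7 FPKM in BPA, 126, 131 and 114 in BPB, 51.9, 61.5 and 49.4 in BPE, 34.7, 30.5 and 65.3 in BPF and 62.6, 42.8 and 82.3 in BPS, against 17.6, 28.9 and 13.6 in control. PSBO2 (AT3G50820), its second copy, had the largest mean change of all PSII genes: 14.1, 22.1 and 12.7 FPKM in BPA, 38.4, 40.9 and 25.0 in BPB, 10.9, 9.08 and 5.39 in BPE, 4.63, 3.06 and 11.3 in BPF and 8.97, 5.82 and 11.1 in BPS, against 0.988, 2.93 and 1.23 in control. Each library of a compound was above each control library for both copies. PSBO2 changed by 3.76 in BPB (adjusted p = 1.82e-05, limma), 2.70 in BPA (0.00327), 1.86 in BPS (0.00422) and 1.82 in BPE (0.0106), and its change in BPF, 1.34, was not called (0.0972).

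PSBO2 gained on PSBO1. The ratio of PSBO2 to PSBO1 was 0.249, 0.222 and 0.207 in BPA, 0.304, 0.312 and 0.219 in BPB, 0.210, 0.148 and 0.109 in BPE, 0.134, 0.1003 and 0.172 in BPF and 0.143, 0.136 and 0.135 in BPS, against 0.0563, 0.101 and 0.0901 in control. Only BPF replicate 2 overlapped the control libraries, and BPB replicates 1 and 2 were highest of all. The ratio differed among the 6 groups (permutation test, adjusted p = 0.00126 over 7 ratios). The coding sequences are 83.6% identical.

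The PSBQ copies showed a smaller difference of the same kind. PSBQ2 over PSBQ1 was 1.92, 2.03 and 1.53 in BPB and 1.40, 1.76 and 1.78 in BPA, against 1.29, 1.27 and 1.00 in control, with no overlap (permutation test over the 6 groups, adjusted p = 0.0243). BPS libraries, at 1.82, 1.37 and 1.296, also lay above control, though its highest library reached 1.287. BPE libraries, at 1.36, 1.11 and 1.31, and BPF libraries, from 0.960 to 1.23, overlapped the control range. PSBP1 rose in the same 4 groups, by 1.37 to 2.32.

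Of the remaining PSII genes, PSBS (AT1G44575), the sensor of thermal dissipation of light energy, was 6.68, 11.2 and 7.27 FPKM in BPA, 15.7, 11.4 and 12.9 in BPB, 4.03, 4.07 and 3.82 in BPE, 3.29, 3.70 and 5.92 in BPF and 7.56, 5.81 and 11.1 in BPS, against 1.36, 3.70 and 1.77 in control. It rose in BPA (1.55), BPB (2.18) and BPS (1.51) and was not called in BPE (0.67, adjusted p = 0.107, limma). PSBX (AT2G06520), of the photosystem II membrane core and the third highest PSII gene, was 15.7, 24.7 and 17.7 FPKM in BPA, 36.0, 36.7 and 39.9 in BPB, 23.5, 27.2 and 19.2 in BPE, 15.0, 10.2 and 18.4 in BPF and 24.5, 13.1 and 35.1 in BPS, against 8.99, 13.4 and 5.92 in control. It rose in BPB, BPE and BPS (1.95, 1.27 and 1.24), and in BPA the change was 1.01 (adjusted p = 0.0550).

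PSBY (AT1G67740), another small membrane subunit, had the smallest mean change of PSII. It stood at 11.4, 15.0 and 3.88 FPKM in BPA, 13.4, 11.5 and 14.9 in BPB, 11.6, 15.9 and 14.4 in BPE, 6.89, 3.41 and 5.77 in BPF and 7.59, 4.56 and 13.1 in BPS, against 5.75, 7.59 and 3.09 in control. BPB and BPE libraries lay above control, and the libraries of BPA, BPF and BPS overlapped it. It was called in BPB only (1.20, adjusted p = 0.0325, limma), a call lost without 5 of 18 single libraries, with median scaling (0.0662) and with quantile normalization (0.0800). The change in BPE, 1.26, was slightly larger and was not called, so the call does not set BPB apart from BPE. PSBW rose in BPA, BPB, BPE and BPS, by 1.16 to 1.90. With the replicate number as a block its calls in BPA and BPS were lost (adjusted p = 0.0538 and 0.0536, limma), and with no filter on low values those in BPA, BPE and BPS were (0.0585, 0.0541 and 0.0588).

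Among the PSI genes, PSAF (AT1G31330), which helps plastocyanin dock, had the highest level. It stood at 30.3, 47.0 and 24.1 FPKM in BPA, 50.3, 47.8 and 41.0 in BPB, 30.0, 31.3 and 25.0 in BPE, 16.3, 9.87 and 25.1 in BPF and 27.8, 16.7 and 33.0 in BPS, against 8.70, 14.4 and 4.97 in control. Every BPA, BPB, BPE and BPS library lay above control, and it rose in these groups by 1.80, 2.29, 1.62 and 1.43 on the log2 scale. PSAG (AT1G55670), which binds the antenna of photosystem I, was 16.9, 23.5 and 11.8 FPKM in BPA, 23.8, 24.3 and 27.2 in BPB, 14.1, 21.2 and 15.4 in BPE, 8.33, 4.46 and 11.6 in BPF and 14.9, 6.56 and 20.1 in BPS, against 3.56, 7.51 and 2.22 in control. BPF replicate 2 and BPS replicate 2 were the libraries within the control range, and 479 of the 780 bases of PSAG overlap a gene on the opposite strand. PSAL (AT4G12800), of the side where the photosystem II antenna can dock, was 11.3, 24.6 and 11.7 FPKM in BPA, 18.8, 20.4 and 20.2 in BPB, 14.9, 18.4 and 18.0 in BPE, 12.9, 6.42 and 13.7 in BPF and 15.4, 9.18 and 22.3 in BPS, against 3.69, 5.90 and 3.68 in control. All libraries of the 5 compounds lay above control for PSAL, with changes of 1.11 in BPF (adjusted p = 0.101, limma, not called) to 1.96 in BPB (0.000414).

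PSAE2 (AT2G20260), a copy of the stromal subunit where ferredoxin docks, had the largest mean change of PSI. It stood at 7.78, 17.5 and 10.6 FPKM in BPA, 17.9, 17.6 and 16.9 in BPB, 10.3, 13.7 and 9.26 in BPE, 8.46, 4.15 and 7.92 in BPF and 10.1, 6.28 and 12.2 in BPS, against 2.46, 4.29 and 1.64 in control. It rose in BPA (1.76), BPB (2.34), BPE (1.71) and BPS (1.49), with adjusted p = 0.00643, 9.58e-05, 0.00547 and 0.00448 (limma). The ratio of PSAE2 to PSAE1 was 0.671, 0.944 and 0.897 in BPA, 1.21, 1.10 and 1.10 in BPB, 0.890, 1.00 and 0.836 in BPE, 1.26, 0.832 and 0.696 in BPF and 0.901, 1.298 and 0.906 in BPS, against 0.619, 0.649 and 0.643 in control. All 15 libraries of compounds lay above the 3 control libraries, and the ratio differed among the groups (permutation test, adjusted p = 0.0397). PSAE1 shares 436 of its 1304 bases with a gene on the opposite strand.

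The PSAH copies went the other way. PSAH2 over PSAH1 was 0.529, 0.338 and 0.417 in BPA, 0.382, 0.380 and 0.469 in BPB, 0.699, 0.543 and 0.615 in BPE, 0.639, 0.297 and 0.351 in BPF and 0.475, 0.595 and 0.745 in BPS, against 0.801, 0.856 and 0.691 in control. BPA, BPB and BPF libraries were all below control, and BPE and BPS overlapped it at 1 library each (permutation test over the 6 groups, adjusted p = 0.0333). PSAH1 rose in BPA, BPB, BPE and BPS, whereas PSAH2 rose in BPB and BPE only (1.54 and 1.17). PSAH1 shares 788 of its 1608 bases with a gene on the opposite strand.

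PSAD2 (AT1G03130), a copy of a further stromal subunit, had the smallest mean change of PSI. It stood at 5.29, 5.76 and 3.50 FPKM in BPA, 6.06, 8.77 and 10.6 in BPB, 7.62, 10.4 and 6.25 in BPE, 4.51, 1.90 and 2.97 in BPF and 4.22, 2.50 and 9.72 in BPS, against 2.93, 4.50 and 1.94 in control. BPB and BPE libraries lay above control, and it rose there (1.22 and 1.16, adjusted p = 0.0170 and 0.0469, limma), while BPF replicate 2 lay below control and libraries of BPA, BPF and BPS fell within its range. The PSAD2 call in BPE was lost without any of 10 single libraries, with no filter on low values (0.0690), quantile normalization (0.0549) and the replicate block (0.0604). PSAD1 likewise rose in BPB (1.68) and BPE (1.83) only. The ratio of PSAD2 to PSAD1 gave a permutation adjusted p of 0.239. PSAK, PSAN and PSAO, further subunits of the periphery, rose in BPA, BPB, BPE and BPS, with log2 changes of 1.04 (PSAN in BPA) to 2.36 (PSAO in BPB).

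**Figure D4:**
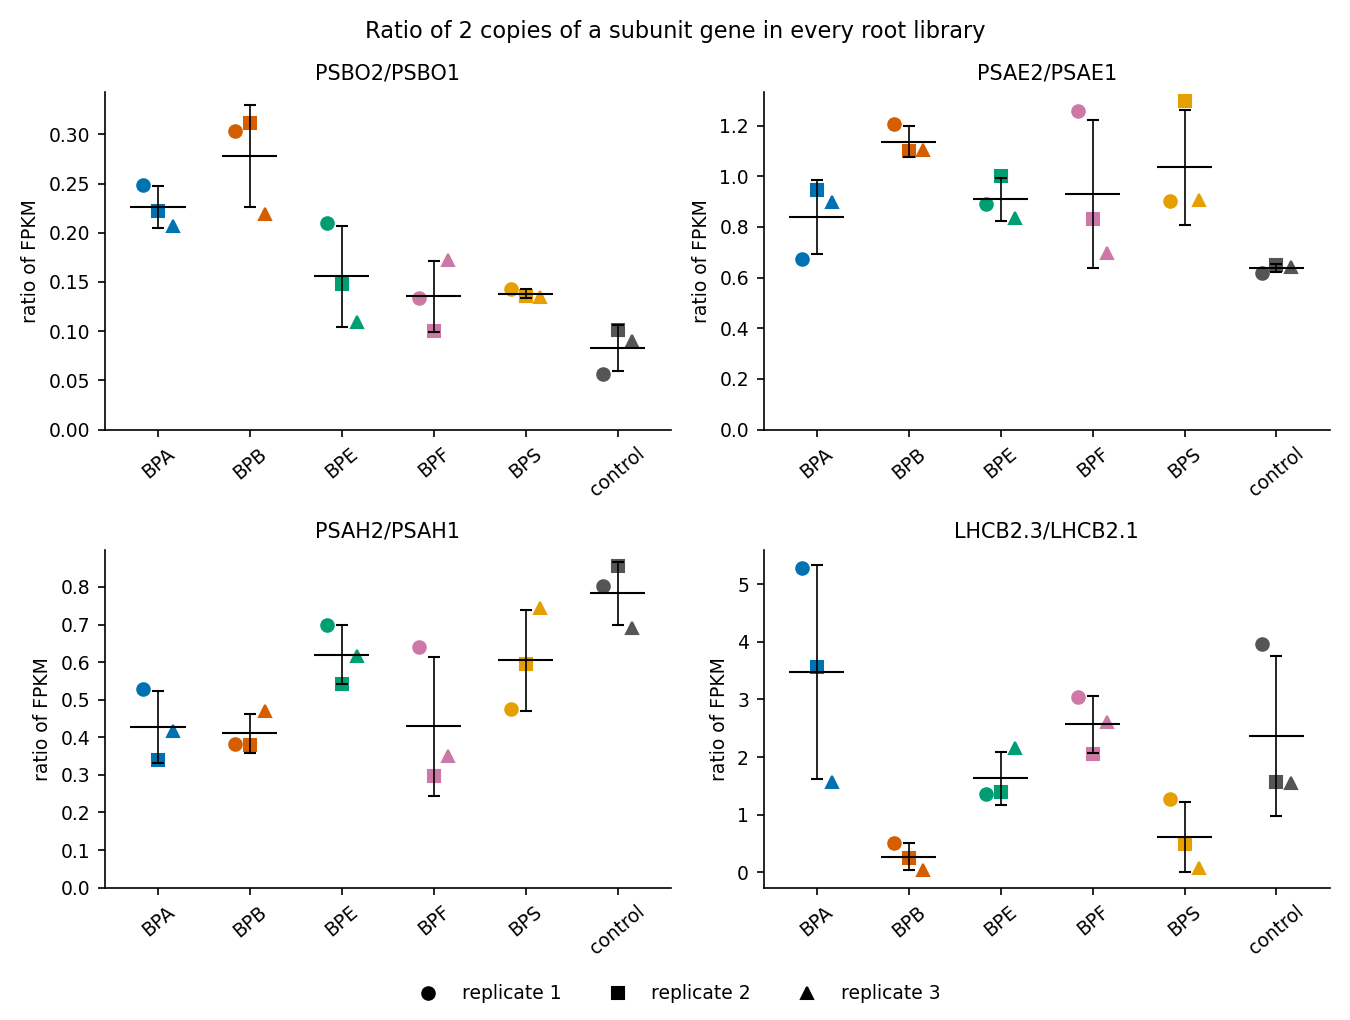
Ratio of FPKM of PSBO2 to PSBO1, PSAE2 to PSAE1, PSAH2 to PSAH1 and LHCB2.3 to LHCB2.1 in each of the 18 libraries, with marker shapes for replicates, a line for the mean and bars for the SD (n = 3). Control libraries lie at 0.619 to 0.649 for PSAE2 to PSAE1, below every library of a compound, and BPB libraries lie at 0.0463 to 0.513 for LHCB2.3 to LHCB2.1.

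Set directly against each other, the compounds differed mainly by BPB. BPF was lower than BPB for 32 of 40 genes (background 28.0% called, 20.2% lower), 12 of the antenna, all 10 of PSII and 10 of PSI, with a median log2 difference of -1.47. BPE was lower than BPB for 17 genes (31.3% called, 19.6% lower). The 8 antenna genes among these were the 4 LHCB1 copies LHCB1.1 to LHCB1.4, LHCB2.1, LHCB2.2, LHCB3 and LHCB5, with LHCB1.3 at -2.13 (95% interval -3.43 to -0.82, adjusted p = 0.0173, limma), and no LHCA gene was called. The count of 32 was 20 without BPF replicate 2, and the count of 17 was 7 without BPB replicate 3, 8 without BPE replicate 3 and 10 without BPE replicate 1. The 6 genes lower in BPE than in BPB in all fits that leave out a library were PSBO1, PSBO2, PSBQ2, PSBR, PSBS and PSAN.

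Over BPA, BPB was higher for 7 genes (background 9.94% called, 5.53% higher): LHCB1.4, LHCB1.5, LHCB2.1, LHCB2.2, LHCB3, LHCB4.2 and PSAN. LHCB2.1 differed most, by 2.14 (95% interval 1.02 to 3.26, adjusted p = 0.0218, limma). That count was 0 without BPA replicate 1, 1 without BPB replicate 2, 2 without BPB replicate 3 and 3 without BPA replicate 2. BPS was lower than BPB for PSAH1, PSBO2 and PSBR, with PSBO2 at -1.90 (-2.73 to -1.07). These were 7.5% of the 40, near the background (9.24% called, 6.58% lower). No antenna gene was called between BPS and BPB, and LHCB1.3 differed by -0.33 with an interval of -1.63 to 0.97. This count was 15 without BPS replicate 3, 5 without BPF replicate 3, 1 without BPS replicate 1 and 0 without BPB replicate 1, BPB replicate 2 or BPS replicate 2.

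BPS was higher than BPE for 6 genes (39.4% called, 20.8% higher): LHCB1.1, LHCB1.2, LHCB1.3, LHCB2.2, LHCB4.3 and PSBS. These were 15% of the 40, under the share of all genes called higher. That count was 3 without BPE replicate 1. With the 3 libraries named above left out together, the count was also 6, but with 2 genes higher and 4 lower. These were thus not the same 6 genes. BPS was higher than BPA for LHCB1.2, LHCB2.2 and LHCB4.3, 7.5% of the 40 and under the background (18.2% called, 10.4% higher). Of these, 0 were called without BPA replicate 1, BPA replicate 2 or BPS replicate 3. BPS was higher than BPF for LHCB2.2 (3.04% called, 1.05% higher; 1.96, adjusted p = 0.0319, limma), a call that ended without BPF replicate 1, BPF replicate 2 or BPS replicate 3, while 2 genes were called without BPF replicate 3. BPF was lower than BPE for PSAD1, PSAD2, PSAH2 and PSBY, 10% of the 40 and near the background (16.0% called, 9.31% lower). That count was 0 without BPE replicate 1, BPE replicate 2, BPE replicate 3 or BPF replicate 2. It was 1 without BPB replicate 2, BPF replicate 3 or control replicate 1, and 2 without BPA replicate 1, BPB replicate 1 or BPS replicate 1.

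For the remaining pairs limma called 0 of 40 genes. Between BPE and BPA (background 2.63% called at an adjusted p below 0.05), 2 of 40 genes had an unadjusted p under 0.05, against 19.9% of all genes tested, and the median log2 difference was -0.02. PSBR differed by -0.41 (95% interval -1.04 to 0.21) and LHCA4 by 0.21 (-0.58 to 1.00). Between BPF and BPA (background 0.0667% called at an adjusted p below 0.05), 15 of 40 genes were lower at an unadjusted p under 0.05, against 7.90% of all genes tested, with a median of -0.65; PSAF differed by -0.98 (-1.74 to -0.22). The median half-width of the 95% intervals over the 40 genes was 0.774 log2 units, and the interval reached past 1 log2 unit for 20 of 40 genes between BPE and BPA and for 37 between BPF and BPA.

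Other photosynthetic genes rose beside the 40. The lists were fixed with earlier results of these data known, and are described by counts and medians. Their counts stand beside 6.57%, 25.5%, 9.08%, 0.708% and 12.3% of all genes called higher in BPA, BPB, BPE, BPF and BPS. Of 9 tested genes of Rubisco and the Calvin cycle 9 rose in BPA, 9 in BPB, 5 in BPE, 0 in BPF and 8 in BPS. PRK, phosphoribulokinase, was 9.24, 5.38 and 8.55 FPKM in BPB and 6.48, 5.67 and 10.4 in BPS, against 0.583, 1.22 and 0.574 in control, and GAPA1, a plastid glyceraldehyde phosphate dehydrogenase, rose in BPA by 2.07 and in BPB by 2.69. FBPASE, the plastid fructose bisphosphatase, rose in BPB by 2.14 (adjusted p = 4.97e-05, limma). Of 14 genes of electron transport and the ATP synthase 8, 11, 8, 0 and 4 rose in BPA, BPB, BPE, BPF and BPS. In BPB, PETC of the cytochrome complex rose by 2.01, FNR1, which reduces NADP, by 1.85, and ATPG of the ATP synthase by 1.63.

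Assembly factors and minor relatives followed with smaller medians. Of 14 assembly and regulation genes all 14 rose in BPB, and 5, 5, 0 and 5 in BPA, BPE, BPF and BPS. HCF136, a photosystem II assembly factor, changed by 1.71 in BPB, CPSRP54, which targets antenna proteins to the thylakoid, by 1.503, and PSB28 by 1.06. Of 8 minor and stress relatives of the antenna 4, 6, 5, 0 and 3 rose in BPA, BPB, BPE, BPF and BPS, and ELIP1, an early light-induced protein, fell in BPE (-1.06, adjusted p = 0.0454, limma). OHP1 and OHP2, one-helix proteins, changed by 1.92 and 1.48 in BPB, and LHCA5 by 1.87. The median log2 change in BPB was 2.14 for the Calvin cycle list, 1.27 for electron transport, 1.16 for the minor relatives and 1.19 for assembly, beside 2.20 for the 40 genes.

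Among 18 tested regulators 3 rose and 2 fell in BPA, 11 rose and 2 fell in BPB, 4 rose in BPE, 0 were called in BPF and 3 rose and 3 fell in BPS. The share of regulators that rose in BPS, 3 of 18, is near the background of 12.3%. Beside the falls, 746 of all 19484 genes tested fell in BPA, 2164 in BPB and 1698 in BPS. GLK2, a transcription factor known for activating antenna genes, was 2.78, 3.58 and 3.47 FPKM in BPA, 8.90, 11.6 and 13.8 in BPB, 5.60, 3.82 and 2.92 in BPE, 2.47, 2.18 and 3.43 in BPF and 5.29, 7.02 and 13.6 in BPS, against 3.92, 2.86 and 2.32 in control. It rose in BPB (1.62, adjusted p = 0.000463, limma) and BPS (1.18, 0.00784) and was not called in BPA (0.10, 0.851). Its copy GLK1 and the GATA factors GNC and CGA1 reached at most 1.00 FPKM in any library and were not tested. HY5, a light-signalling factor, was 37.3, 43.0 and 48.5 FPKM in BPB, against 48.0, 35.7 and 37.4 in control, and was not called with any compound. SIG5, a plastid sigma factor, rose in BPA (1.62), BPB (2.56) and BPE (1.22). PIF5 rose in BPB (1.47) and BPE (1.14), and COP1, a ubiquitin ligase of light signalling, in BPA, BPB and BPS, by 0.42, 0.76 and 0.48. The called falls were of regulators not named above. CRY2 was 39.6, 42.2 and 39.9 FPKM in BPB and 31.0, 33.7 and 36.3 in BPS, against 81.1, 78.4 and 62.5 in control. PHYB was 18.5, 21.4 and 23.8 in BPS, against 38.4, 38.1 and 30.6 in control. CRY1 went the other way in BPB, at 26.7, 39.8 and 32.0 against 14.8, 17.5 and 9.49 in control.

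**Figure D5:**
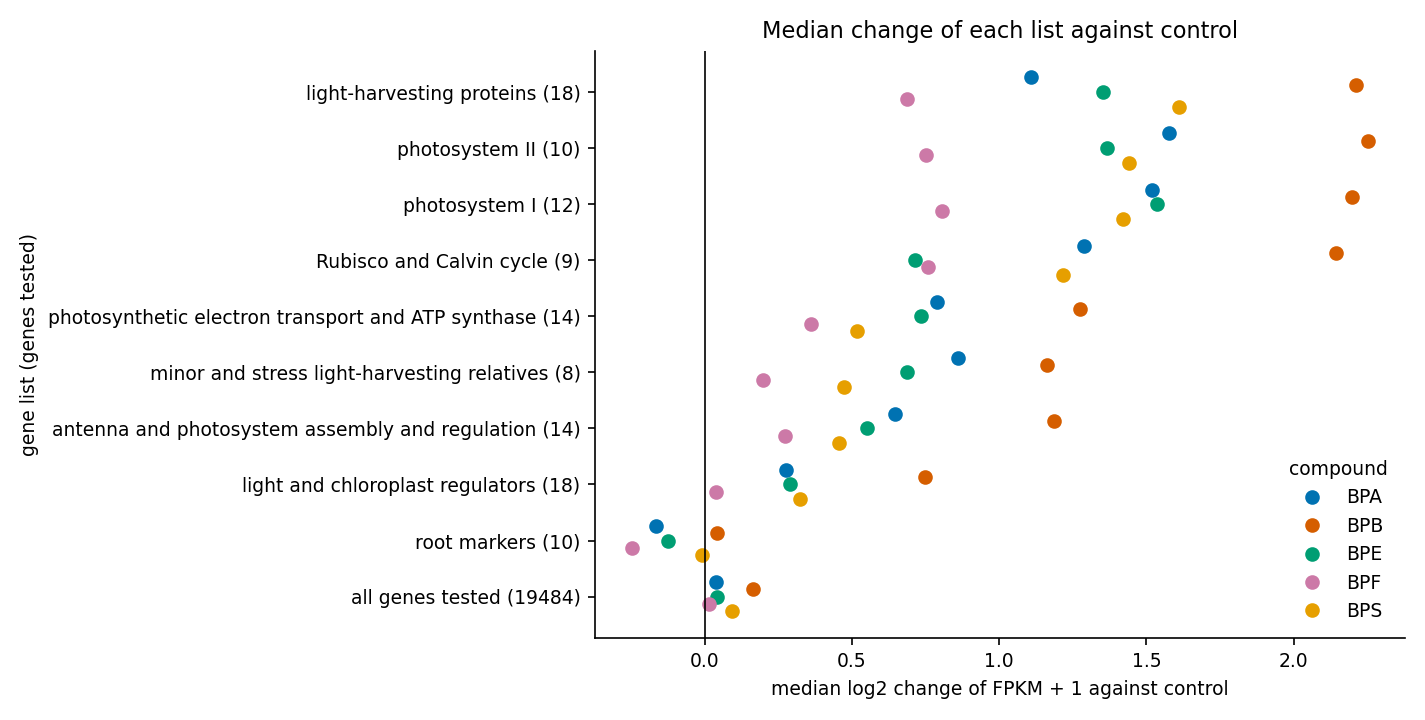
Median log2 change of FPKM + 1 against control (horizontal axis) for the 3 classes of the 40 genes, 6 other gene lists and all 19484 genes tested, with 1 point per compound. The 3 classes have medians of 2.20 to 2.25 in BPB, while the root markers lie at -0.25 to 0.04 over the 5 compounds and all genes at 0.01 to 0.16.

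Markers of shoot tissue that do not belong to photosynthesis were mostly low or absent. Of 16 such markers 13 were below 1 FPKM in every library, among them the leaf polarity genes FIL and YAB3, the stomatal genes SPCH, MUTE and FAMA, and the shoot meristem genes STM, CLV3 and WUS. The highest of these 13 was MYB60, a guard cell factor, at 0.666 FPKM in BPB replicate 1, against at most 0.0523 in control. STM (0.243), FAMA (0.145), YAB5 (0.104) and FIL (0.157) also peaked in BPB libraries, and each was 0 in control. TMM, CLV3, WUS and GL1 peaked in BPA, YAB3 in BPE, MUTE in BPF, and YAB2 and SPCH in BPS. Genes this low were below the filter and not tested. The other 3 of the 16 were PDF1 (at most 46.2 FPKM), ATML1 (2.41) and CER1 (1.97), and none of them was called against control with any compound. The summed level of the 16 was 16.5 to 35.1 FPKM in BPA, 19.9 to 35.1 in BPB, 18.2 to 22.1 in BPE, 24.1 to 45.2 in BPF and 34.7 to 50.4 in BPS, against 23.2 to 34.5 in control. Most of this sum was PDF1, for example 14.7 of 16.5 FPKM in BPA replicate 1 and 46.2 of 50.4 in BPS replicate 3. The sum therefore says little about the other shoot markers. Root markers were present in all groups, with a summed level of 165 to 312 FPKM over the 18 libraries. Of 10 tested root markers 0 rose and 1 fell in BPA, 2 rose and 2 fell in BPB, 1 rose and 2 fell in BPS, and 0 were called in BPE and BPF. Of all 19484 genes tested, 1281 rose and 746 fell in BPA, 4973 and 2164 in BPB, and 2396 and 1698 in BPS. GL2, a factor of non-hair epidermis, rose in BPB (1.08) and BPS (1.43), at 2.30, 3.42 and 4.64 FPKM in BPB and 4.07, 4.38 and 5.14 in BPS, against 1.12, 0.934 and 1.11 in control. SCR, of the endodermis, rose in BPB (0.57). RHD6, a root hair factor, fell in BPA (-0.997) and BPB (-1.02), and PLT2, of the root meristem, in BPS (-0.65). WOX5, of the root quiescent centre, fell in BPB (-2.24) and BPS (-1.93), at 2.18, 0.942 and 1.99 FPKM in BPB and 1.87, 2.10 and 2.95 in BPS, against 14.0, 12.4 and 8.68 in control. The part of these markers in the results on the 40 genes was not tested.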

How the data were processed

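Messenger RNA of 18 root libraries was measured with strand-specific sequencing, per the labels' protocols. The deposited files hold FPKM per locus, per the file headers. HISAT2 2.0.4, StringTie 1.3.0, edgeR and the build TAIR10 are named in the submitters' processing notes, without their roles, and whether counting used strand is not given in the sources used here. FPKM values are not counts, so no count test was run. Depth was recovered from the spacing of low values, of which 52.1% to 60.2% lay within 0.02 of a whole fragment.

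Values were taken as log2(FPKM + 1), which understates changes of low genes, for the 19484 loci with a mean of at least 1 FPKM. A trended fit in limma 3.58.1 (R 4.3.3) covered 6 groups of 3 libraries and 15 comparisons, two-sided, with Benjamini-Hochberg adjustment within each and calls at an adjusted p below 0.05. Folds of means and ratios are of FPKM itself. Ratios of 7 gene pairs were tested by permuting the 18 libraries (100000 permutations of the sum of squares between groups, adjusted over the 7). Replicate numbers come from the labels, which name no shared source. Same-numbered BPA and control libraries deviated together from their group means (correlations 0.295, 0.296 and 0.419). Both scripts were tested on simulated data. Libraries shared no identical profiles: the highest share of identical nonzero values between any pair was 0%.

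The members and lists were chosen with earlier results of these data known. Library values are given for the 3 highest members of each class, those with the largest and smallest mean change, and copies within paralogue groups; those of LHCB1.1, LHCB1.2, LHCB1.4, LHCB2.1, LHCB2.3 and PSBS, and the called root markers, were added after values were seen. From each list up to 3 genes with the smallest adjusted p are named, with GLK1, GLK2, HY5, GNC and CGA1. Values of CRY1, CRY2, PHYB and single shoot markers were also added after values were seen. In the annotation of TAIR10.1, 16 of the 40 genes overlap another gene, 15 of them on the opposite strand. Promoters were read from that assembly, and coding identities come from global alignment with Biopython 1.88. Alternatives were another pseudocount, no filter, median scaling, quantile normalization, no trend, only the 6 libraries compared, a replicate block, and leaving out each library.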

Additional observations from a re-analysis of the deposited data

How the results depend on the processing

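No call on any of the 40 genes changed direction to a call the other way in the alternatives listed here, and counts not given below stayed within 1.5 times. With only the 6 libraries compared, limma called 0 genes in BPF against control, 3 in BPB against BPA, 0 in BPS against BPA, 28 in BPE against BPB, 0 in BPS against BPB, 9 in BPF against BPE and 0 in BPS against BPF. Without the filter on low values the counts were 0 in BPF against control, 1 in BPF against BPE and 0 in BPS against BPF. With log2(FPKM + 0.1) they were 1 in BPS against BPA, 2 in BPF against BPE and 0 in BPS against BPF, and quantile normalization gave 2 in BPF against BPE. With BPA replicate 3, BPB replicate 3 and BPS replicate 3 left out together, chosen after seeing the data, they were 5 in BPF against control, 1 in BPF against BPA, 10 in BPS against BPB, 7 in BPF against BPE and 0 in BPS against BPF. Against control, the calls lost with no filter were LHCB1.3, LHCB3 and PSBW in BPA, LHCB2.1, LHCB6, PSBW and PSAD2 in BPE, PSBR in BPF and PSBW in BPS. Those lost with only the 6 libraries compared were PSBW in BPA, PSBR in BPF, and LHCA3, LHCB1.1, LHCB1.4, LHCB1.5, LHCB4.1, PSBW, PSBX, PSAG and PSAO in BPS. The cause was not tested.

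Leaving out each library in turn gave, against control, 6 to 26 genes in BPA, 35 to 38 in BPB, 4 to 33 in BPE, 0 to 1 in BPF and 22 to 36 in BPS. Between compounds it gave 0 to 10 in BPB against BPA, 0 to 0 in BPE against BPA, 0 to 0 in BPF against BPA, 0 to 4 in BPS against BPA, 7 to 20 in BPE against BPB, 20 to 37 in BPF against BPB, 0 to 15 in BPS against BPB, 0 to 5 in BPF against BPE, 3 to 8 in BPS against BPE and 0 to 2 in BPS against BPF.

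Over the series, 15 of 45 same-number correlations of deviations were above 0.1, ranging from -0.566 to 0.648, and 12 of 18 libraries correlated best with their own number, a hint from the data and not from the design. In 14 of 15 pairs of groups at least 1 same-number correlation was 0.1 or lower, the exception being BPA with control. The replicate block gave 23 genes in BPA (24 without it), 38 in BPB, 29 in BPE, 1 in BPF and 30 in BPS against control, and 1 in BPF against BPE. Median scaling lowered the share of higher calls among all called genes to 46.8% in BPA (63.2% unscaled), 47.4% in BPB (69.7%), 45.1% in BPE (63.6%), 40.4% in BPF (51.1%) and 43.8% in BPS (58.5%). Over all genes the median log2 change moved by over 0.1 only in comparisons with BPB. Depth limits the low members: at 1 FPKM a 1 kb gene rests on 15.9 to 22.1 fragments.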
